A study of Saccharomyces cerevisiae with 28 samples.

Results

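The genes described here are 10 genes of the G1 phase and the G1/S transition of the budding yeast cell cycle: the G1 cyclins CLN1, CLN2 and CLN3, the cyclin PCL1, the S-phase cyclins CLB5 and CLB6, the kinase gene SWE1, the transcription factor gene SWI4, the inhibitor gene WHI5 and the cohesin gene MCD1. Their probe sets were found by the gene symbol in the platform annotation. Each of the 10 genes had 1 probe set of its own, among 5656 genes measured by such probe sets and 9274 probe sets tested. By systematic name they are YMR199W (CLN1), YPL256C (CLN2), YAL040C (CLN3), YNL289W (PCL1), YPR120C (CLB5), YGR109C (CLB6), YJL187C (SWE1), YER111C (SWI4), YOR083W (WHI5) and YDL003W (MCD1).

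In yeast, the cyclin Cln3 with the kinase Cdc28 starts the decision to divide, by inactivating Whi5, a repressor that holds back the transcription factor SBF (Swi4 with Swi6). SBF and its relative MBF (Mbp1 with Swi6) then switch on a wave of G1/S genes, among them CLN1, CLN2, PCL1, CLB5, CLB6, SWE1 and MCD1. Cln1 and Cln2 drive budding and the removal of the inhibitor Sic1, and Far1, a protein of the mating response, inhibits Cln-bound Cdc28.

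Transcript levels were measured on 28 one-colour Affymetrix arrays of log-phase Saccharomyces cerevisiae, as log2 levels per probe set. RM is a wild strain from a vineyard and BY is isogenic to S288C, the laboratory reference. The groups were hybrid diploids from mating BY with RM (6 arrays), RM diploids (3), BY diploids (3), mixtures of equal parts of BY and RM mRNA (6), RM haploids (3), BY haploids (3), diploids from mating a pair of segregants of the BY and RM cross (2) and segregants of that cross (2). The labels give no mating types, marker alleles or medium, do not state the ploidy of the mixed strains or of the segregants, and do not tell separate cultures from repeated arrays of a culture. The p-values thus cover array-to-array spread, which could be technical alone. In these bulk RNA samples, a change in the share of cells in G1 and a change in transcript per G1 cell cannot be told apart.

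Array medians lay between 7.34 and 7.56, and replicates correlated at 0.956 or more across probe sets, except mixture replicate 5 (mean r = 0.922 with the other mixtures). All 11 measured genes of a list that cells of either haploid mating type express and a/alpha diploids repress were lower in the diploids than in the haploids, although 1 of 3 probe sets for FUS3 was not (0.23, adjusted p = 0.353). The log2 of their summed level was 9.92 to 10.71 on all 14 arrays labelled diploid, against 11.90 to 12.26 on the other 14 arrays. The summed level of 7 a-specific genes was 13.66 to 13.81 in RM haploids, against 10.06 to 10.40 in BY haploids, and that of 4 alpha-specific genes was 9.30 to 9.96 in RM haploids, against 14.05 to 14.20 in BY haploids. Ploidy and mating-type state therefore cannot be told apart in the comparisons of diploids with haploids, nor strain and mating type between the haploids.

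**Figure D1:**
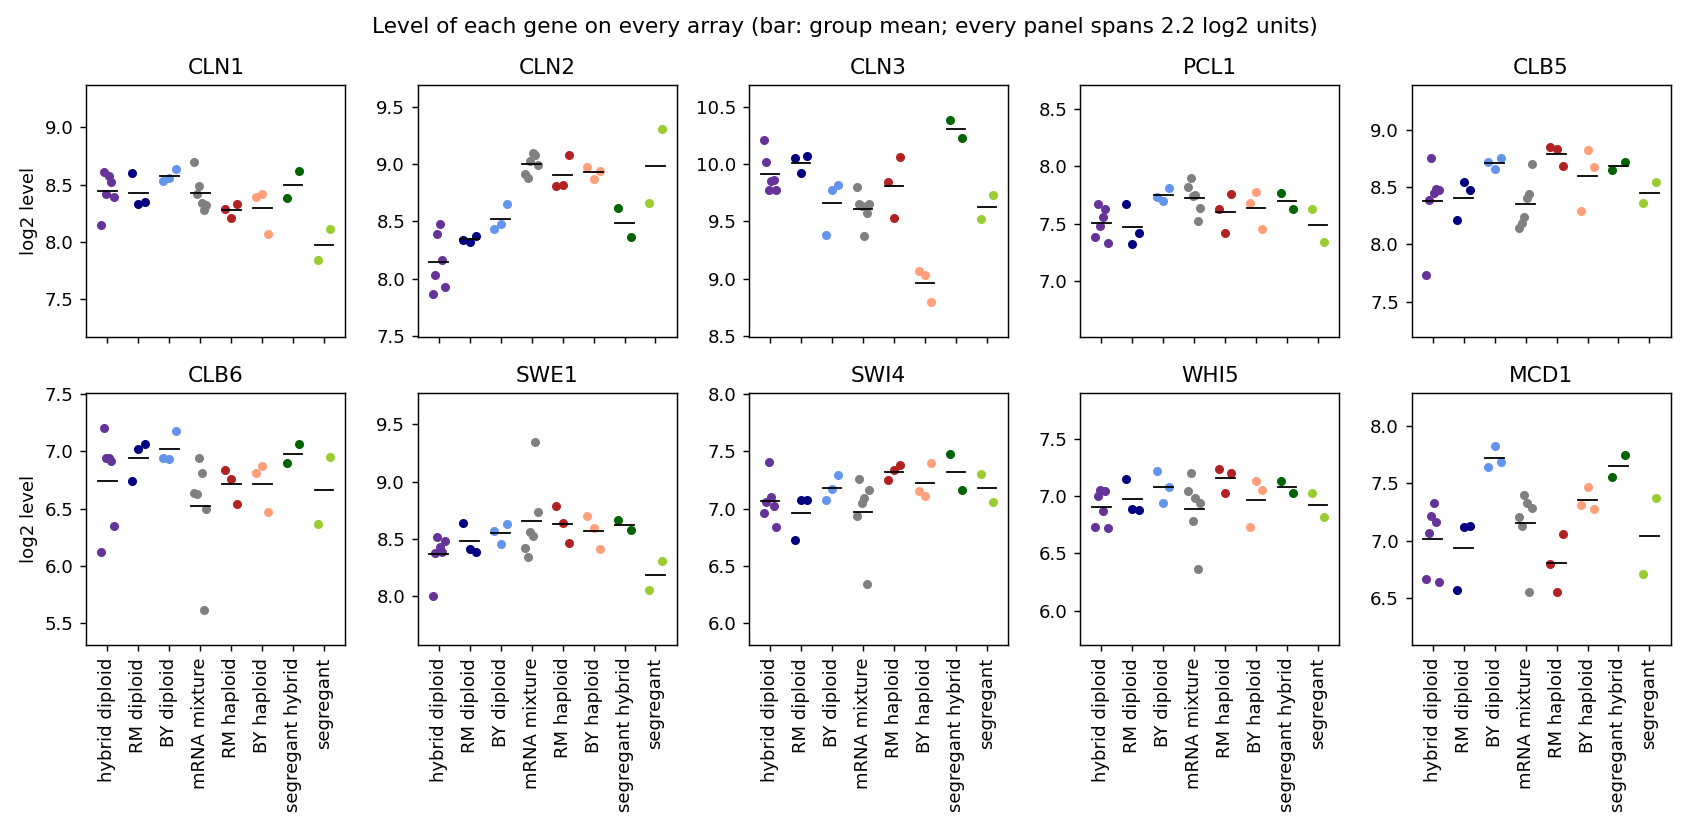
The log2 level of each gene (vertical axes) on every array, by group, with each point an array and each bar a group mean. CLN2 was at 8.65 or lower on every array of the 4 groups labelled diploid and at 8.66 or higher on every other array. BY haploids were the lowest group for CLN3. MCD1 was lower on every array of the RM groups than on every array of the BY groups. Such a separation was found for 13.4% of all probe sets in haploids and 23.1% in diploids, and was not counted over both.

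The 10 genes differed in how far groups stood apart. The standard deviation between the means of the 6 groups tested was 0.37 for CLN3, 0.35 for CLN2 and 0.33 for MCD1, against standard deviations between replicates of 0.18, 0.15 and 0.27 in the same order of genes. For CLN1, PCL1, SWE1, SWI4, WHI5, CLB5 and CLB6 the standard deviation between group means was 0.11 to 0.19, below the replicate standard deviation of each gene (0.14 to 0.35). Means over several arrays vary less than single arrays, so this does not show that the groups were alike for these genes. CLB6, the noisiest of the 10, had a replicate standard deviation of 0.35, against a median of 0.23 over all probe sets.

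The first comparison asked how diploid cells differ from haploid cells of the same strains. Averaged over RM and BY, CLN2 fell and CLN3 rose in diploids, and the other 8 genes did not pass the test. These 2 calls among 10 genes stand beside 11.7% of all probe sets called in this comparison, 6.64% higher and 5.09% lower. The G1 cyclins thus gave one call in each direction, and the median difference of the 10 genes was -0.02, against 0.07 for all probe sets.

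CLN2, which encodes one of the cyclins that trigger budding, was lower in diploids of both strains. Its log2 levels were 8.34, 8.32 and 8.37 in RM diploids, against 8.81, 8.82 and 9.08 in RM haploids. They were 8.43, 8.48 and 8.65 in BY diploids, against 8.97, 8.87 and 8.94 in BY haploids. Every diploid array was below every haploid array, in either strain and in both together. Such a complete separation to the low side over these 12 arrays was found for 1 of the 10 genes and for 1.68% of all probe sets. The difference averaged over strains was -0.48 ± 0.10 on the log2 scale (SE, limma adjusted p = 8.5e-04), which is 0.715 times the haploid level, with a 95% interval of -0.68 to -0.29. Within RM it was -0.56 ± 0.14 (adjusted p = 0.00797, and 0.0501 without RM haploid replicate 3). Within BY it was -0.41 ± 0.14 and did not pass (adjusted p = 0.0852). Under 7 of 35 alternatives the BY difference did pass, with adjusted p down to 0.00503. The strains' differences were not distinguishable from each other (interaction -0.15 ± 0.19, adjusted p = 0.913).

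FAR1, the inhibitor of Cln-bound Cdc28, is one of the genes that diploids repress, and like CLN2 it was lower in diploids. All 11 measured genes of the haploid-specific list shared that direction. The FAR1 means of the groups labelled diploid ran from 5.91 in BY diploids to 6.26 in RM diploids. These means lay near the 10th percentile of all values (5.73). The FAR1 level was 5.83 to 6.61 on the hybrid, RM diploid and BY diploid arrays, against 9.52 to 10.31 on the mixture, RM haploid and BY haploid arrays. It fell by 3.76 on the log2 scale in diploids against haploids (SE 0.11, adjusted p = 2.0e-17). The part of FAR1 or of the other haploid-specific genes in the CLN2 difference was not tested.

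CLN3, the most upstream of the G1 cyclins, was higher in diploids when both strains were averaged. In BY diploids its levels were 9.38, 9.77 and 9.82, against 9.07, 9.03 and 8.80 in BY haploids. In RM diploids they were 10.05, 9.92 and 10.07, against 9.84, 9.53 and 10.06 in RM haploids. The BY groups did not overlap, whereas RM haploid replicate 3 lay within the range of the RM diploids. The mean difference was 0.45 ± 0.11 (adjusted p = 0.00509, 1.36-fold). Within BY it was 0.69 ± 0.15 (adjusted p = 0.00293, 1.61-fold), and within RM it was 0.20 ± 0.15 (adjusted p = 0.522, 95% interval -0.11 to 0.51). The test of the difference between strains gave -0.49 ± 0.21 for RM minus BY (unadjusted p = 0.0306, adjusted p = 0.386), so a larger CLN3 difference in BY than in RM was not established.

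CLN1, the close relative of CLN2, did not pass and its difference had the opposite sign. CLN1 levels were 8.60, 8.33 and 8.35 in RM diploids, against 8.29, 8.21 and 8.33 in RM haploids. In BY diploids they were 8.53, 8.56 and 8.64, against 8.39, 8.42 and 8.07 in BY haploids. The BY groups were apart and the RM groups touched. The mean difference was 0.22 ± 0.09 (unadjusted p = 0.0294, adjusted p = 0.151). Setting CLN2 against CLN1 on the same array removes any shift that both probe sets share. The log2 level of CLN2 minus that of CLN1 was -0.26 to 0.02 on the 6 RM and BY diploid arrays, against 0.45 to 0.87 on the 6 haploid arrays. These ratios show that the 2 cyclin transcripts changed unequally, and not that either stayed the same.

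PCL1, a cyclin that binds the kinase Pho85 in G1, spanned 7.32 to 7.81 in the diploids, against 7.42 to 7.78 in the haploids. Its mean difference was -0.01 ± 0.09 (adjusted p = 0.959), with a 95% interval of -0.20 to 0.18. The interval bounds any PCL1 change at a smaller size than the CLN2 difference.

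The S-phase cyclin genes did not pass either. CLB5 lay at 8.21 to 8.75 in diploids, against 8.29 to 8.85 in haploids, and differed by -0.13 ± 0.13 (adjusted p = 0.623). Its RM arrays did not overlap, with 8.21, 8.54 and 8.47 in RM diploids, against 8.85, 8.83 and 8.68 in RM haploids, a difference of -0.38 ± 0.19 (adjusted p = 0.284). CLB6 lay at 6.74 to 7.18 in diploids, against 6.47 to 6.87 in haploids. Its difference of 0.26 ± 0.19 (adjusted p = 0.442) had a 95% interval of -0.13 to 0.65, wide enough to hold changes as large as that of CLN3.

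The regulators of the switch showed no call. SWI4, the DNA-binding subunit of SBF, was at 6.73 to 7.29 in diploids, against 7.11 to 7.40 in haploids (difference -0.20 ± 0.13, adjusted p = 0.370). WHI5, which encodes the repressor of SBF, was at 6.88 to 7.22 in diploids, against 6.73 to 7.24 in haploids (-0.04 ± 0.12, adjusted p = 0.902). SWE1, the kinase that restrains Cdc28 when budding is delayed, was at 8.39 to 8.64 in diploids, against 8.41 to 8.79 in haploids (-0.08 ± 0.13, adjusted p = 0.773). MCD1, which encodes the cohesin subunit that closes the ring around sister chromatids, was at 6.57 to 7.83 in diploids, against 6.55 to 7.47 in haploids (0.25 ± 0.15, adjusted p = 0.325).

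Within each strain, 1 of the 10 genes passed: CLN2 in RM, beside 8.24% of all probe sets called there (4.53% lower), and CLN3 in BY, beside 6.35% (2.33% higher). In RM, the arrays of CLN2, CLB5 and SWI4 were all lower in diploids than in haploids without overlap, beside 10.8% of all probe sets. In BY, the arrays of CLN1, CLN3, CLB6 and MCD1 were higher without overlap, beside 24.4%, and those of CLN2 lower, beside 7.6%. The median difference of all probe sets was 0.11 within BY and 0.01 once each array was centred on its own median. All 10 interaction terms missed the threshold, 1 of them (CLN3) with an unadjusted p under 0.05, beside 1.95% of all probe sets called.

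**Figure D2:**
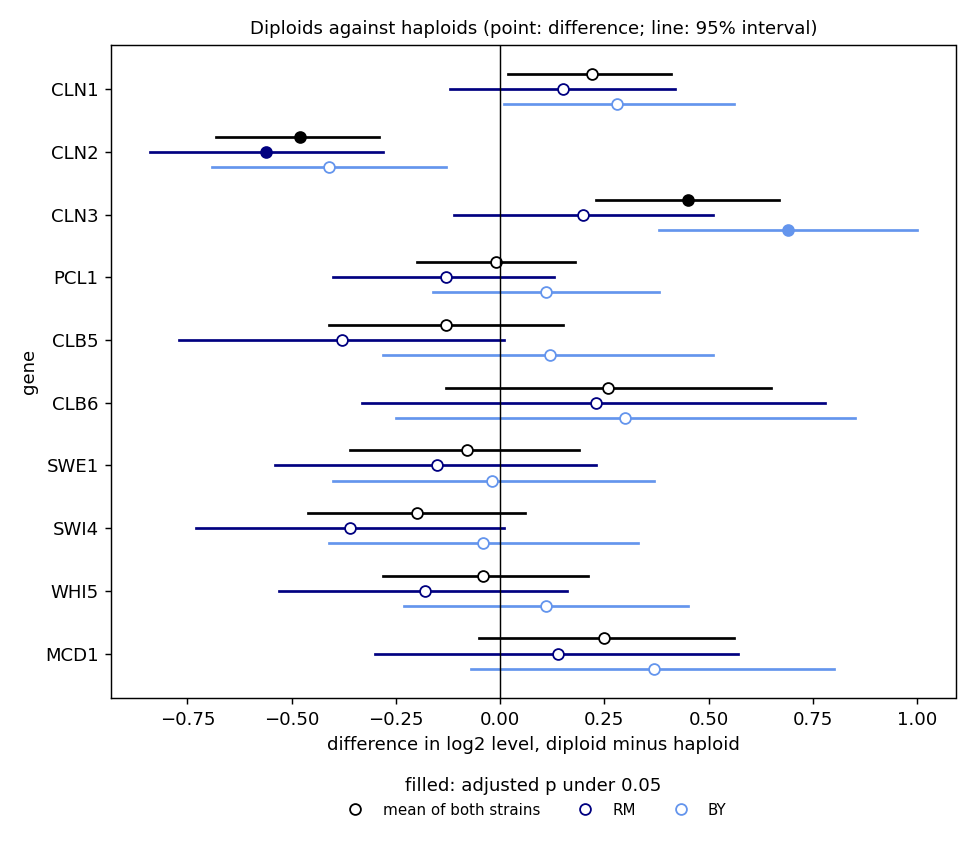
The difference in log2 level, diploid minus haploid (horizontal axis), for each gene over both strains, within RM and within BY, with 95% intervals as lines. Points are filled where the adjusted p is under 0.05: CLN2 over both strains and in RM, and CLN3 over both strains and in BY.

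The separation of CLN2 extended to the groups left out of that test. On all 14 arrays labelled diploid, which include hybrids and segregant hybrids, CLN2 lay between 7.87 and 8.65 with a median of 8.36. On the 14 mixture, haploid and segregant arrays it lay between 8.66 and 9.31 with a median of 8.96. The 2 sets did not overlap, although BY diploid replicate 3 (8.65) and segregant replicate 1 (8.66) lay next to each other. The other 9 genes overlapped between these sets. Of all probe sets, 1.29% were lower and 0.108% were higher without overlap in the same way. CLN2 minus CLN1 was -0.58 to 0.24 on the arrays labelled diploid, against 0.21 to 1.20 on the other 14, an overlap made by segregant hybrid replicate 1 and mixture replicate 1.

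**Figure D3:**
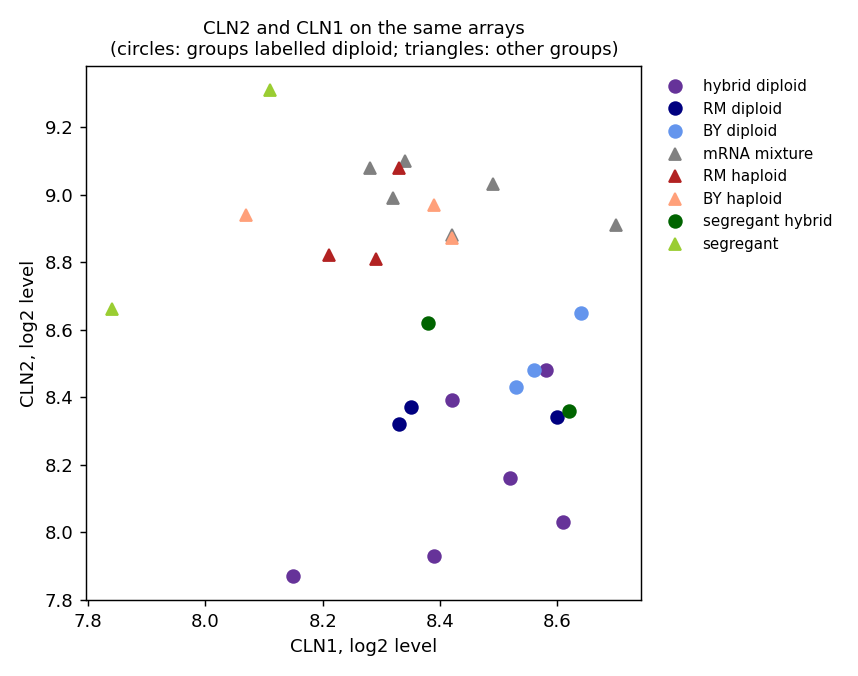
The log2 level of CLN2 (vertical axis) against that of CLN1 (horizontal axis) on each of the 28 arrays, with circles for the groups labelled diploid and triangles for the others. CLN2 divides the circles (7.87 to 8.65) from the triangles (8.66 to 9.31), while CLN1 spans 8.15 to 8.64 in the circles and 7.84 to 8.70 in the triangles.

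The next comparison asked how RM differs from BY at equal ploidy. CLN3 was higher in RM haploids than in BY haploids and MCD1 was lower in RM diploids than in BY diploids. Of the 10 genes 1 passed in haploids, beside 18.0% of all probe sets (9.89% higher in RM), and 1 in diploids, beside 17.2% (9.83% lower in RM).

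For CLN3, the RM haploid levels of 9.84, 9.53 and 10.06 were all above the BY haploid levels of 9.07, 9.03 and 8.80. The difference was 0.84 ± 0.15 (adjusted p = 1.7e-04), or 1.79-fold, with a 95% interval of 0.53 to 1.15. In diploids the RM arrays at 10.05, 9.92 and 10.07 were also all above the BY arrays at 9.38, 9.77 and 9.82, but the difference of 0.36 ± 0.15 did not pass (adjusted p = 0.112). BY haploids stood apart as the lowest of all 8 groups in CLN3 level, and the share of all probe sets with such a separation was not counted. Higher RM arrays without overlap were seen for 1 of the 10 genes in each comparison, beside 19.5% of all probe sets in haploids and 22.1% in diploids.

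MCD1 was lower on every RM array than on every BY array. Lower RM arrays without overlap were found for 13.4% of all probe sets in haploids and 23.1% in diploids. The share over haploids and diploids together was not counted. Its levels were 6.57, 7.12 and 7.13 in RM diploids, against 7.64, 7.83 and 7.69 in BY diploids. In RM haploids they were 6.80, 6.55 and 7.06, against 7.31, 7.47 and 7.28 in BY haploids. The diploid difference was -0.78 ± 0.21 (adjusted p = 0.0102), or 0.582 times the BY level. It was -0.60 and did not pass without RM diploid replicate 1 (adjusted p = 0.0865). The haploid difference of -0.55 ± 0.21 missed the threshold (adjusted p = 0.0739) but passed under 7 of 35 alternatives. The 2 differences did not differ from each other beyond their error (-0.23 ± 0.30, adjusted p = 0.915).

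The other 8 genes did not pass for strain. In haploids CLN1 and CLN2 differed by -0.02 each and PCL1 by -0.03. In diploids the RM arrays of CLN2, PCL1 and CLB5, as well as MCD1, lay below the BY arrays without overlap, beside 23.1% of all probe sets, with differences of -0.18 for CLN2, -0.28 for PCL1 and -0.30 for CLB5 (adjusted p between 0.162 and 0.450). How RM sequence that departs from the reference affects hybridisation to these probe sets was not tested.

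**Figure D4:**
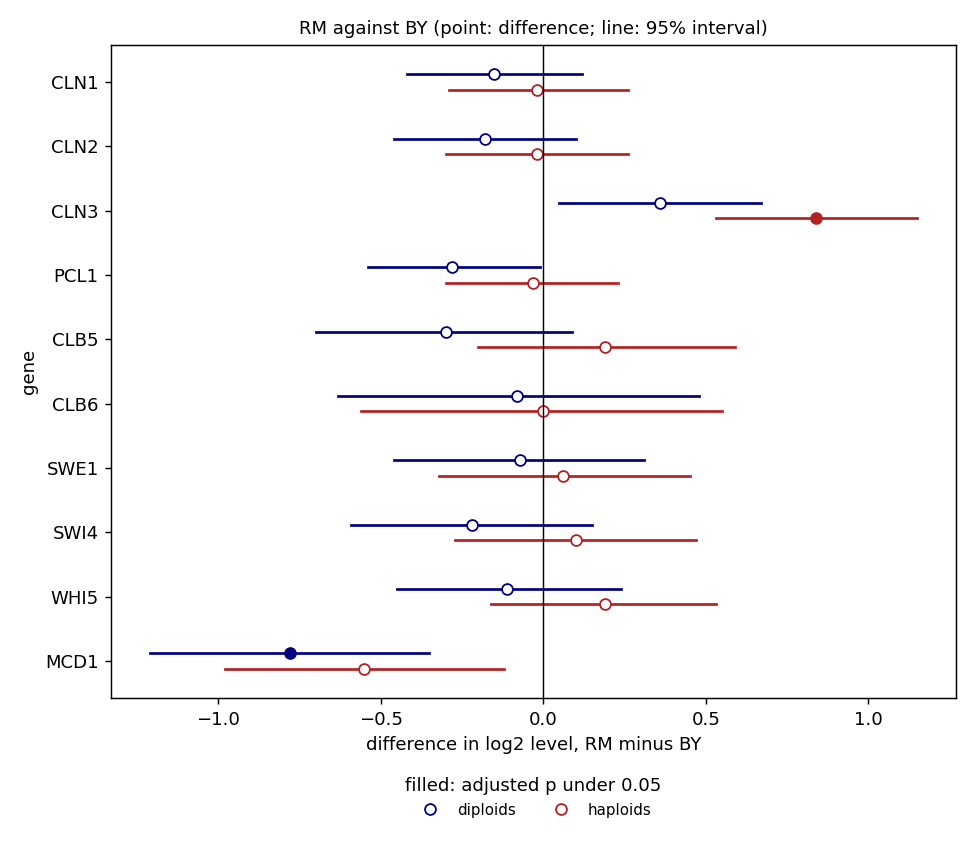
The difference in log2 level, RM minus BY (horizontal axis), for each gene in diploids and in haploids, with 95% intervals as lines and filled points where the adjusted p is under 0.05. The filled points are CLN3 in haploids (0.84) and MCD1 in diploids (-0.78).

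Hybrid diploids were then set against the mean of their diploid parents, taken on the linear scale. CLN2 was lower in hybrids than this midparent, and the other 9 genes did not pass, beside 18.1% of all probe sets called (11.5% lower). The 6 hybrid arrays of CLN2 were 7.87, 8.03, 8.39, 8.48, 8.16 and 7.93, against 8.34, 8.32 and 8.37 in RM diploids and 8.43, 8.48 and 8.65 in BY diploids. Hybrid replicates 3 and 4 lay within the range of the parental arrays and the other 4 lay below them. The difference was -0.29 ± 0.10 (adjusted p = 0.0373), or 0.817 times the midparent. This call was lost under 13 of 36 alternatives, and without hybrid replicates 1 and 6, an alternative chosen after seeing the data, the difference was -0.17 (adjusted p = 0.302). It was also lost on leaving out any 1 of 9 arrays: hybrid replicates 1, 2, 5 and 6, BY diploid replicates 2 and 3, and RM diploid replicates 1, 2 and 3 (adjusted p between 0.0547 and 0.103).

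MCD1 differed more from the midparent than CLN2 but did not pass. Its 6 hybrid arrays were at 6.64, 7.12 and 7.33 (lowest, median and highest), and the group mean of 7.02 was -0.37 ± 0.15 from the midparent (adjusted p = 0.0933). Hybrid MCD1 levels reached into the range of RM diploids and stayed below every BY diploid array. CLN3 hybrid levels of 9.77 to 10.21 were close to the midparent of 9.85 (0.07 ± 0.11, 95% interval -0.15 to 0.29). CLB5, CLB6, SWE1 and WHI5 differed by -0.23 to -0.13 without passing (adjusted p between 0.349 and 0.477). Hybrid replicates 1 and 6 each held the lowest of the 6 hybrid levels for 5 of the 10 genes, and the median of the 10 genes there was -0.27 and -0.18 from the group medians, against -0.04 and -0.08 for all probe sets. Their part in these differences, apart from the values without them, was not tested.

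The mRNA mixtures were set against the midparent of the haploids. No gene of the 10 passed (limma), beside 8.53% of all probe sets, and 2 had an unadjusted p under 0.05. CLB5 was at 8.14 to 8.70 in the mixtures, against a midparent of 8.69 (-0.34 ± 0.13, adjusted p = 0.119). It passed under 4 of 36 alternatives (adjusted p down to 0.00767). SWI4 differed by -0.30 ± 0.13 (adjusted p = 0.146), with mixture replicate 5 as the lowest array at 6.34. CLN2 in mixtures, at 8.88 to 9.10, differed from the haploid midparent by 0.08 ± 0.10 (95% interval -0.11 to 0.28). The CLN2 ranges of mixtures and haploids overlapped, as did their summed levels of haploid-specific genes.

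Hybrids and mixtures both hold transcripts of the 2 parents and had 6 arrays each. The log2 of the summed level of haploid-specific genes was 9.92 to 10.71 in hybrids and 12.15 to 12.26 in mixtures. In RM and BY haploids it was 11.90 to 12.26. Hybrid origin, ploidy and mating-type state therefore cannot be told apart in this comparison. CLN2 was lower and CLN3 higher in hybrids than in mixtures, 2 calls among 10 genes beside 28.2% of all probe sets (17.1% higher and 11.0% lower). CLN2 in hybrids spanned 7.87 to 8.48 (median 8.09), against 8.88 to 9.10 (median 9.01) in mixtures. All 6 hybrid arrays were below all 6 mixture arrays, as they were for 6.08% of all probe sets. The difference was -0.85 ± 0.10 (adjusted p = 2.1e-07), or 0.553 times the mixture level. CLN3 spanned 9.77 to 10.21 (median 9.86) in hybrids, against 9.37 to 9.80 (median 9.64) in mixtures, with overlap from mixture replicate 1 at 9.80. Its difference was 0.30 ± 0.11 (adjusted p = 0.0346). It did not pass without hybrid replicate 1 or 2 or mixture replicate 3 or 4 (adjusted p between 0.0526 and 0.0951), nor without hybrid replicates 1 and 6 together (0.26, adjusted p = 0.0987).

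PCL1 (-0.22 ± 0.09, adjusted p = 0.0765) and SWE1 (-0.29 ± 0.13, adjusted p = 0.111) were lower in hybrids than in mixtures without passing. Mixture replicate 5 held the highest SWE1 level of the mixtures, at 9.35. With 1 array left out, the limma adjusted p for SWE1 ran from 0.0566 (without mixture replicate 2) to 0.261 (without mixture replicate 5). CLN1 was at 8.15 to 8.61 in hybrids, against 8.28 to 8.70 in mixtures, a difference of 0.02 ± 0.09 with a 95% interval of -0.17 to 0.21. The within-array difference of CLN2 and CLN1 was -0.58 to -0.03 in hybrids, against 0.21 to 0.80 in mixtures, so the groups did not overlap. Comparisons of hybrids with mixtures and with the diploid midparent share the hybrid arrays and are not independent.

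**Figure D5:**
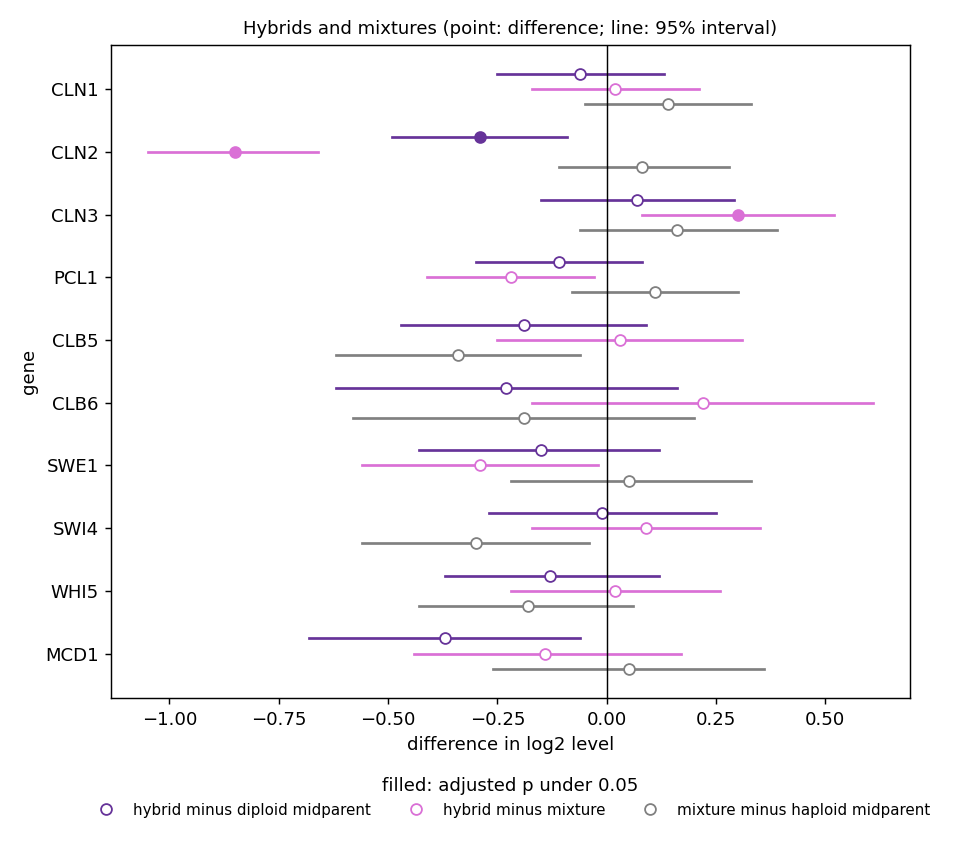
The difference in log2 level (horizontal axis) for each gene between hybrids and the diploid midparent, hybrids and mixtures, and mixtures and the haploid midparent, with 95% intervals as lines and filled points where the adjusted p is under 0.05. CLN2 is filled against the midparent (-0.29) and against mixtures (-0.85), and CLN3 against mixtures (0.30).

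The segregant hybrids and segregants had 2 arrays each, which may be different genotypes, and were not tested. CLN2 was at 8.62 and 8.36 in segregant hybrids, against 8.66 and 9.31 in segregants. CLN3 was at 10.38 and 10.23, the highest of the 8 group levels, against 9.52 and 9.73 in segregants. The segregant hybrids lay above every array of all other groups in CLN3. How many of all probe sets set these 2 arrays apart in this way was not counted. MCD1 was at 7.56 and 7.75 in segregant hybrids, within the range of the BY groups, against 6.71 and 7.37 in segregants, where the arrays lay far apart. CLN1 was at 8.38 and 8.62, against 7.84 and 8.11 in segregants, whose mean of 7.98 was the lowest of the 8 groups. SWE1 was likewise lowest in segregants, at 8.06 and 8.31, against 8.67 and 8.58 in segregant hybrids, although hybrid replicate 1 at 8.0 was lower still.

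Over all 8 groups the order of CLN2 means ran from mixtures (9.00), segregants (8.98), BY haploids (8.93) and RM haploids (8.90) to BY diploids (8.52), segregant hybrids (8.49), RM diploids (8.34) and hybrids (8.14). Among neighbours in that order, RM haploids and BY diploids did not overlap, and every other pair of neighbours did. The order of CLN3 means was segregant hybrids (10.30), RM diploids (10.01), hybrids (9.91), RM haploids (9.81), BY diploids (9.66), segregants (9.62), mixtures (9.61) and BY haploids (8.97). In this order the ranges of the first and the last group did not overlap those of their neighbours. The order of MCD1 means was BY diploids (7.72), segregant hybrids (7.65), BY haploids (7.35), mixtures (7.15), segregants (7.04), hybrids (7.02), RM diploids (6.94) and RM haploids (6.80), where segregant hybrids and BY haploids were apart. For CLN1 only the last pair of neighbours, RM haploids and segregants, was apart. For PCL1, CLB5, CLB6, SWE1, SWI4 and WHI5 every pair of neighbours overlapped.

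Other genes of the pathway were counted in lists chosen with earlier results of these data known. Among 15 genes of the class that SBF drives for budding and the cell wall, 2 rose and 4 fell in diploids against haploids over both strains, beside 6.64% of all probe sets higher and 5.09% lower, and their median difference was -0.06, against 0.07 for all probe sets. For SRL1, counted among the falls, 1 of 3 probe sets did not pass (adjusted p = 0.113). The falls included GIC2, an effector of Cdc42 in bud emergence (-0.66 ± 0.13, adjusted p = 0.00109), and AXL2, which marks axial bud sites (-0.64 ± 0.11, adjusted p = 1.7e-04). The rises were CRH1, a cell wall enzyme (0.46 ± 0.08, adjusted p = 3.1e-04), and YOX1, a repressor of early cell cycle genes (0.43 ± 0.10, adjusted p = 0.00382). Within RM the only calls were the falls of AXL2 (-0.98), GIC2 (-0.79), SRL1 (-0.66) and SVS1 (-0.48), beside 4.53% of all probe sets lower. Within BY the only calls were the rises of CRH1 (0.59) and YOX1 (0.61), beside 2.33% of all probe sets higher. Between hybrids and mixtures 6 of the 15 fell, beside 11.0% of all probe sets lower, with GIC2 at -1.28 ± 0.13, AXL2 at -0.81 ± 0.11, GIN4 at -0.68 ± 0.13 and TOS2 at -0.62 ± 0.16.

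Of 20 measured genes of the class that MBF drives for DNA synthesis and repair, 0 passed between diploids and haploids over both strains (limma), 1 had an unadjusted p under 0.05, and the median difference was 0.06. Each gene was counted by its brightest probe set, and 1 other probe set of POL2, the DNA polymerase epsilon gene, did pass (0.48 ± 0.14, adjusted p = 0.0271). Without mixture replicate 5, 1 of the 20 passed. Within RM, RAD27, a flap nuclease of replication, rose (0.72 ± 0.19, adjusted p = 0.0129). Between hybrids and mixtures, 1 rose and 4 fell, beside 17.1% of all probe sets higher and 11.0% lower. The falls included ASF1, a histone chaperone (-0.60 ± 0.11), and RNR1, the large subunit of ribonucleotide reductase (-0.52 ± 0.14). In this comparison 9 of the 20 passed without mixture replicate 5, and the share of all probe sets called in that setting is not given here. For strain, RAD27 (-0.81 ± 0.19) and ASF1 (-0.50 ± 0.16) were lower in RM haploids than in BY haploids. CDC9, the DNA ligase of replication, was lower in RM diploids than in BY diploids (-0.62 ± 0.21, adjusted p = 0.0421), as MCD1 was.

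Of 10 regulators that act with SBF and MBF, 3 passed between diploids and haploids over both strains, beside 11.7% of all probe sets. They rose and were SRL3, a relative of WHI5 (0.57 ± 0.16, adjusted p = 0.0171), MSA2, a G1 activator (0.38 ± 0.09), and NRM1, a corepressor of MBF (0.31 ± 0.10, adjusted p = 0.0385). Without BY haploid replicate 3, 1 of the 10 passed. SRL3 was also higher in RM than in BY, by 0.86 ± 0.22 in haploids and 1.42 ± 0.22 in diploids. SWI6, the subunit that SBF and MBF share, differed between diploids and haploids by 0.19 ± 0.10 (adjusted p = 0.271), and MBP1, the DNA-binding subunit of MBF, by -0.35 ± 0.13 (adjusted p = 0.0997). Of 7 genes for Cdc28 inhibitors and the ubiquitin ligase that removes them, FAR1 alone passed, beside 11.7% of all probe sets. SIC1, the inhibitor of S-phase Cdc28, differed by -0.03 ± 0.10 (adjusted p = 0.898). In hybrids SIC1 was lower than in mixtures (-0.47 ± 0.10, adjusted p = 0.00106).

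Among 10 genes for Pho85 and other cyclins, 0 passed between diploids and haploids over both strains (limma) and 2 had an unadjusted p under 0.05, while within RM PCL5, a cyclin induced by amino acid starvation, rose (1.07 ± 0.24) and PCL7 fell (-0.68 ± 0.16). PCL2, another G1 cyclin of Pho85, differed by -0.28 ± 0.13 over both strains (adjusted p = 0.196). PCL2 was lower in RM diploids than in BY diploids (-0.71 ± 0.18, adjusted p = 0.00808), where PCL5 was higher by 2.81 ± 0.24. Of 8 genes for the rest of cohesin and its loading, 0 passed for ploidy or for strain (limma), where 1 had an unadjusted p under 0.05 for ploidy over both strains and 1 for strain in diploids. Of 8 genes that act on SWE1, 0 passed between diploids and haploids over both strains (limma), and 0 had an unadjusted p under 0.05, though 1 other probe set of KCC4, a septin kinase, did pass (-0.56 ± 0.18, adjusted p = 0.0366). CLA4, a kinase of septin assembly, was higher in RM in haploids (0.38 ± 0.11) and diploids (0.67 ± 0.11).

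Markers of other cell cycle phases were also counted. Of 9 measured genes of the G2/M cluster around CLB2, SWI5 fell in diploids (-0.52 ± 0.08, adjusted p = 4.1e-05). It was the only call over both strains, beside 11.7% of all probe sets. The log2 of their summed level was 11.07 to 11.31 on the RM and BY diploid arrays, against 10.98 to 11.29 on the haploid arrays. Of 10 genes of the M/G1 phase 4 rose and 2 fell over both strains, beside 6.64% of all probe sets higher and 5.09% lower, with the daughter-cell separation genes DSE2 (1.55 ± 0.09) and CTS1 (1.28 ± 0.10) as the largest rises. RME1, which is also on the haploid-specific list, was among the 2 falls over both strains. Within RM 4 rose and 1 fell, beside 8.24% of all probe sets called. Within BY the only call was 1 fall, beside 6.35% of all probe sets called. In RM diploids DSE2 averaged 10.75, against 8.04 in RM haploids, and in BY diploids 11.75, against 11.36 in BY haploids. Only 2 of 8 core histone genes had a probe set of their own, and neither passed between diploids and haploids over both strains (limma), with 0 at an unadjusted p under 0.05. For strain, HTB1 was higher in RM haploids than in BY haploids (0.57, adjusted p = 0.0307) and HTB2 was lower in RM diploids than in BY diploids (-0.57, adjusted p = 0.00916). The part of cell cycle phase in the differences of CLN2 and CLN3 was not tested.

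The genes most like each of the 10 in level over the 24 arrays of 6 groups were found by Pearson's r, as a description without a test. All points share arrays and group structure. For CLN2 they were RDH54 (r = 0.93), a recombination gene of the haploid-specific list, GIC2 (0.93) and ALK2 (0.93). For CLN3 they were AVT3, HAP4 and SIP3 (0.90 each), where HAP4 encodes the activator of respiratory genes. For MCD1 they were the small nucleolar RNA gene SNR63 (0.94), PFF1 (0.93) and CDC9 (0.92). CLN1 had the weakest nearest gene of the 10, with r = 0.75 for NPL3.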

How the data were processed

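Per the labels, total RNA of log-phase cultures was hybridised to Affymetrix yeast arrays, and the authors deposited 1 processed value per probe set and array. The deposited values are taken as log2 levels from their range (highest 14.67), since no header states the scale. The tool behind them, its background correction and its scaling are not given in the sources used here, so no further normalization was applied. Array files with raw probe intensities were not used here, and how far the values lie above background is unknown. The number of arrays limits the precision.

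Of 9335 probe sets, 60 controls and 1 at 0 on every array were left out, leaving 9274. The platform annotation gave 1 gene for 6504 of them, several for 328 and none for 2442, and all 6504 matched the reference gene table. Each of the 10 genes had 1 probe set, and 0 of these carried a suffix for sequence shared between genes. A gene with several probe sets is represented by the one with the highest mean over all arrays.

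A linear model was fitted to 24 arrays in 6 groups (limma 3.58.1 in R 4.3.3), two-sided, with Benjamini-Hochberg adjustment over all tested probe sets. Calls have an adjusted p under 0.05. The 4 arrays of segregants and segregant hybrids were left out of the fit. Midparents average the linear levels of RM and BY, with standard errors by the delta method. The steps were tested on simulated arrays, with independent noise around the mean of each probe set and known differences added to some. The simulated arrays held no outlying arrays or array-wide shifts, so they do not show how such arrays affect the calls. Figures used matplotlib 3.10.9 in Python 3.11.15. No 2 replicates shared over 3.00% of their values. Alternatives covered quantile normalization, median centring, a filter on dim probe sets, a floor, the samples in the fit, array weights, a replicate block, 1 probe set per gene and each array left out. The genes, lists and tests were chosen with earlier results of these data known. All 10 genes are named, and from each list up to 4 called genes of largest difference per comparison, with FAR1, SIC1, SWI6, MBP1 and PCL2 whatever their call.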

Additional observations from a re-analysis of the deposited data

Results flagged for a closer look

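Of 20 sets of 6 arrays tested (each gene in hybrids and in mixtures), 5 held an array set far from the others, with its gap to the nearest array, as a share of the whole range, past the 95% critical value of Dixon, where chance gives about 1 in 20. Hybrid replicate 1 was such an array for CLB5 (7.73, 0.66 below the next lowest, 0.647 of the range) and for SWE1 (8.0, 0.38 below, 0.731 of the range). Mixture replicate 5 was such an array for CLB6 (5.62, 0.88 below, 0.667 of the range), SWI4 (6.34, 0.60 below, 0.652 of the range) and MCD1 (6.55, 0.58 below, 0.682 of the range). Mixture replicate 5 held the lowest mixture level for 6 of the 10 genes, and both these genes and all probe sets had a median of -0.16 from the group medians there.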

How the results depend on the processing

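CLN2 and CLN3 between diploids and haploids, CLN3 in BY diploids against haploids, CLN3 in RM haploids against BY haploids, and CLN2 in hybrids against mixtures passed under all 35 alternatives. No called difference changed sign among 3170 recomputed, and 71 uncalled ones did. Of 81 uncalled differences, 12 passed under at least 1 alternative. How many of the 10 genes passed moved as follows, and the cause was not tested. With array weights 2 became 3 for mean ploidy, as MCD1 passed (0.31, adjusted p = 0.00641), and 2 became 3 for hybrids against mixtures, as PCL1 passed (-0.17, adjusted p = 0.0163), also 3 without mixture replicate 5. For BY diploids against haploids 1 became 2 with quantile normalization, median centring, only the groups compared, or without hybrid replicates 1 and 6 (chosen after seeing the data), as CLN2 joined CLN3. That count became 3 with array weights, as MCD1 passed too (0.36, limma adjusted p = 0.0387). For RM diploids against haploids 1 became 3 with array weights. For RM against BY haploids 1 became 2 with quantile normalization, centring, only the groups compared, array weights, or without mixture replicate 5 or the hybrid pair. For RM against BY diploids 1 became 2 with quantile normalization and 4 with array weights. For hybrids against midparent 1 became 0 with centring, only the groups compared, all 28 arrays or without the hybrid pair, and 2 with array weights or without mixture replicate 5. For mixtures against midparent 0 became 1 with array weights or without the hybrid pair, and for hybrids against mixtures 2 became 1 without that pair. With 1 array left out the counts were 2 for mean ploidy, 1 to 2 in BY, 0 to 1 in RM, 1 to 2 for strain in haploids, 0 to 1 in diploids, 0 to 2 for hybrids against midparent, 0 to 1 for mixtures against midparent and 1 to 3 for hybrids against mixtures.

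Replicate numbers were not taken to pair the arrays. In 0 of 15 pairs of groups did every same-numbered pair correlate over 0.1. In 1, BY haploids with RM diploids, every array correlated best with its own number (r of 0.087 to 0.226). Between RM haploids and mixtures 0 of 9 arrays did so. These are hints from the data only and do not settle whether some groups were handled together by number. With the replicate number as a block, 2 genes instead of 1 passed in BY, 1 instead of 0 passed for mixtures against midparent, and other counts stayed.

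Probe sets called moved more than 1.5 times under some settings. With array weights they were 2616 instead of 1088 for mean ploidy, 1358 instead of 589 in BY, 1993 instead of 764 in RM, 2593 instead of 1669 for strain in haploids, 3744 instead of 1598 in diploids, 738 instead of 181 for the interaction, 4638 instead of 1675 for hybrids against midparent, 2230 instead of 791 for mixtures against midparent and 4615 instead of 2611 for hybrids against mixtures. With 1 probe set per gene, and so fewer tests, they were 615, 165, 473 and 1021 for mean, BY and RM ploidy and haploid strain, 117 for the interaction and 154 for mixtures. Without mixture replicate 5 they were 1172 in RM, 296 for the interaction and 2657 for hybrids against midparent, which was 685 without the hybrid pair. Quantile normalization gave 285 for the interaction. Only the groups compared gave 2478 for strain in diploids. Mixtures against midparent gave 441 with quantile normalization, 326 without dim probe sets, 1 with only the groups compared, 509 with the block, and 472, 292 and 513 without BY haploid 2, RM haploid 2 or mixture 1. Median centring moved the share of higher calls to 44.7% against 56.6% for mean ploidy, 23.6% against 36.7% in BY, 71.8% against 58.6% for the interaction and 50.4% against 36.1% for hybrids against midparent.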
